A study of Arabidopsis thaliana with 4 samples.

Results

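Cytoplasmic mRNA turnover in plants begins mainly with removal of the poly(A) tail and of the 5′ cap, and 10 Arabidopsis genes that encode this machinery were followed here through RNA sequencing of *upf* mutants. The genes were chosen by locus name for their role in this pathway. They are the exoribonuclease *XRN4* (AT1G54490), the decapping genes *DCP1* (AT1G08370), *DCP2* (AT5G13570), *DCP5* (AT1G26110) and *VCS* (AT3G13300), the activators *LSM1A* (AT1G19120), *LSM1B* (AT3G14080) and *PAT1* (AT1G79090), and the deadenylases *CAF1a* (AT3G44260) and *CAF1b* (AT5G22250). These are 10 of the 22409 loci of the deposited table, of which 21284 are annotated genes, and all 10 had a value in all 4 libraries. The libraries came from *upf1-5 upf3-1* double mutants, *upf3-1* single mutants, *upf1-5* single mutants and wild-type (WT) Col-0 plants, with 1 library per genotype. *upf1-5* and *upf3-1* are T-DNA insertion alleles in the Col-0 accession, each mutation is represented by 1 allele, and the double mutant carries both. The deposited table calls 1 library by a name that no sample label uses, and this library was taken as the double mutant because each other name matches another sample. All plants were 8-day-old seedlings grown on MS plates at 23°C under 16 h light and 8 h dark, and whole seedlings were pooled at Zeitgeber Time 16 (ZT16, counted from lights on). Because no genotype has a replicate, differences between libraries have no replicate check, no p-value can be given, and a difference describes these libraries.

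In plants, the CCR4-NOT complex shortens the poly(A) tail, and CAF1 proteins are among its catalytic subunits. The cap is then removed by DCP2 together with DCP1 and the scaffold VARICOSE (VCS), aided by DCP5, by PAT1 and by the ring of LSM1 to LSM7 proteins that binds shortened 3′ ends. XRN4 degrades the uncapped RNA from its 5′ end in the cytoplasm. Nonsense-mediated decay (NMD), in which UPF1 and UPF3 act, marks mRNAs with an aberrant stop codon for decay, and *upf* mutants accumulate such mRNAs. The comparisons below ask how mRNAs for the general decay machinery stood in plants with a mutation in *UPF1*, in *UPF3* or in both.

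*CAF1a* and *CAF1b* are the members on which most differences below rest, and they are close copies of each other. Their coding sequences are 81.4% identical over the aligned bases, and the longest run of identical bases is 32 nt. The stretch of each gene around the first acidic motif of the nuclease active site is shown because it is nearly the same in both genes. Capitals mark the codons of that motif in the TAIR10.1 reference (RefSeq), read 5′ to 3′ on the minus strand, at chr3:15952897-15952926 for *CAF1a* and at chr5:7366298-7366327 for *CAF1b*.
CAF1a: atctcaatgGACACAGAAtttcccggcgtg
CAF1b: atctcaatgGATACAGAAtttcccggcgtg
These stretches share 29 of 30 bases, and the 1 base that differs lies inside the capitals. The motif starts at codon 47 of *CAF1a* and at codon 42 of *CAF1b*. Both genes have a single exon and 1 annotated model. *CAF1a* lies on chromosome 3 at 15952008 to 15953346 and *CAF1b* on chromosome 5 at 7365477 to 7366799, both on the minus strand of TAIR10.1.

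The targeted genes were examined first. *UPF1* had 8.27 FPKM in the double mutant, 30.6 in *upf3-1*, 3.18 in *upf1-5* and 23.9 in WT, where FPKM is the number of fragments divided by transcript length in kilobases and by library size. *UPF3* had 7.10 FPKM in the double mutant, 6.36 in *upf3-1*, 33.7 in *upf1-5* and 20.8 in WT. Each gene was thus lowest in the libraries whose labels name its insertion, the one taken as the double mutant included, and each kept a residual signal there. The reference genes of the study differed little, since *PP2AA3* had between 38.1 and 42.2 FPKM and the SAND gene between 19.7 and 21.7. Between 18837 and 19966 loci reached 1 FPKM in a library. The leaf gene *RBCS1A*, for the small subunit of Rubisco, had 8395 FPKM in the double mutant, 9140 in *upf3-1*, 16528 in *upf1-5* and 18826 in WT. *LHCB1.3*, for a light-harvesting protein, had 1916 FPKM in the double mutant, 1486 in *upf3-1*, 2468 in *upf1-5* and 3431 in WT. The root gene *PYK10* was highest in *upf3-1*, at 3558 FPKM, and lay between 1517 and 1918 FPKM elsewhere. *CYCB1;1*, a cyclin gene of dividing cells, had 5.63 FPKM in the double mutant, 8.64 in *upf3-1*, 6.50 in *upf1-5* and 3.69 in WT. Of 2 floral genes, *AP3* stayed at or below 0.311 FPKM, and *PI* had 0.401 FPKM in the double mutant, 0.733 in *upf3-1*, 0.483 in *upf1-5* and 4.61 in WT. Marker levels of leaf, root and dividing cells and of the floral gene *PI* therefore differed between libraries. *PI* was highest in the WT library, which all ratios to WT share. In whole seedlings, fewer cells of a type and less RNA per cell cannot be told apart.

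The deadenylase *CAF1a* had the widest range of the 10 genes. Its mRNA level was 7.11 FPKM in the double mutant, 4.53 in *upf3-1*, 6.57 in *upf1-5* and 11.6 in WT. All 3 mutants were below WT, and *upf3-1* was lowest, at 2.55-fold below WT with a log2 ratio of -1.35. The ratio to WT was 0.615 in the double mutant and 0.568 in *upf1-5*. A ratio to WT lower than that of *CAF1a* was seen at 13.3% of loci in the double mutant, 3.30% in *upf3-1* and 3.43% in *upf1-5*. *CAF1a* lies in the second of 5 equal classes of loci by mean FPKM, whose median level is 6.95 FPKM, where loci vary more than in the classes above it. In that class, the 5th and 95th percentiles of the log2 ratio to WT were -0.92 and 2.196 in the double mutant, -1.11 and 2.08 in *upf3-1* and -0.68 and 1.31 in *upf1-5*. *CAF1a* was below this range in *upf3-1* and *upf1-5* and inside it in the double mutant. Its highest level was 2.55 times its lowest, and 23.7% of the loci in its class varied by 2.5-fold or more. The leaf genes above were also below WT in all 3 mutants, by ratios of 0.446 for *RBCS1A* and 0.558 for *LHCB1.3* in the double mutant, 0.485 and 0.433 in *upf3-1*, and 0.878 and 0.719 in *upf1-5*, and their part in the difference of *CAF1a* was not tested.

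*CAF1b*, the other deadenylase, had 6.73 FPKM in the double mutant, 5.66 in *upf3-1*, 4.77 in *upf1-5* and 7.60 in WT. It was below WT in all 3 mutants as well, with log2 ratios of -0.17, -0.42 and -0.67 in that order of genotypes, and *upf1-5* rather than *upf3-1* was lowest. Its value in *upf1-5*, 1.59-fold below WT, lay just inside the 5th percentile of its class, with 5.00% of all loci lower. The *CAF1a* level was 1.06 times that of *CAF1b* in the double mutant, 0.800 times in *upf3-1*, 1.38 times in *upf1-5* and 1.52 times in WT. *CAF1b* thus exceeded *CAF1a* in *upf3-1* alone among the 4 libraries. The authors ran Cufflinks with default settings, under which a read that maps to several places is shared evenly among them, so the division between these genes is uncertain for reads from stretches that both share.

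**Figure D1:**
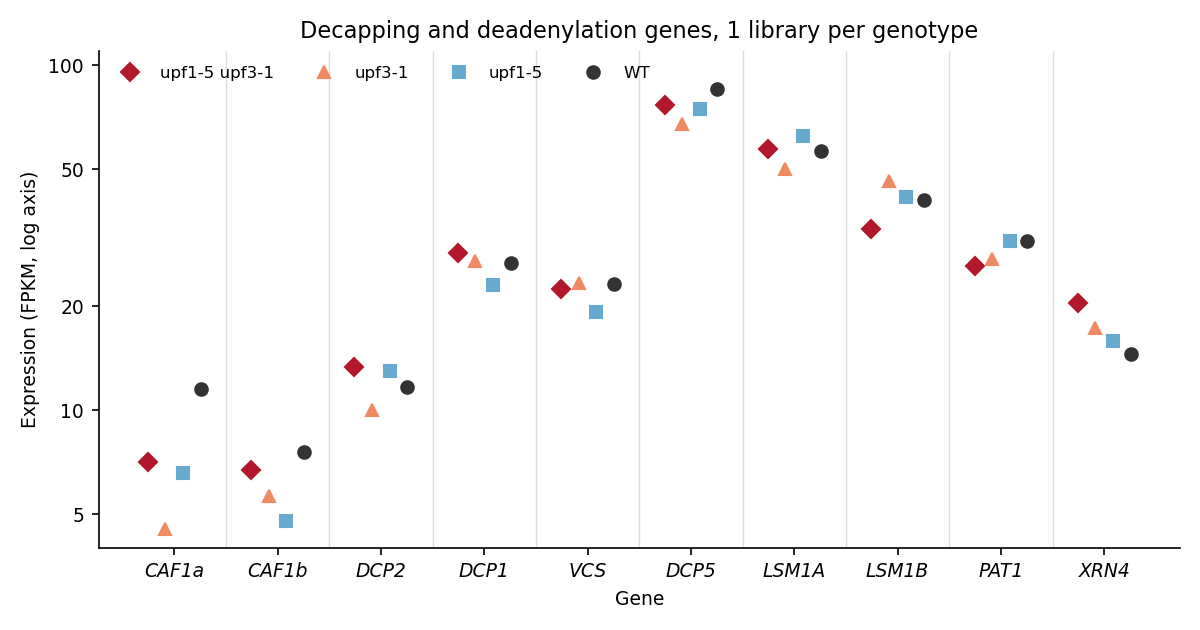
Level of each of the 10 genes in FPKM on a log axis, with 1 point per library and the genotypes drawn from left to right as *upf1-5 upf3-1*, *upf3-1*, *upf1-5* and WT. *CAF1a* lies at 4.53 FPKM in *upf3-1* and at 11.6 in WT, whereas the points of *PAT1* lie within 1.18-fold of each other.

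The catalytic subunit of decapping varied less. *DCP2*, which hydrolyses the cap and lies on chromosome 5 at 4367262 to 4370429, had 13.3 FPKM in the double mutant, 10 in *upf3-1*, 13.0 in *upf1-5* and 11.7 in WT. Only *upf3-1* was below WT, and the highest library was 1.33 times the lowest. *DCP1*, the activating partner of DCP2 on chromosome 1 at 2638037 to 2640663, had 28.5 FPKM in the double mutant, 27.0 in *upf3-1*, 23.0 in *upf1-5* and 26.7 in WT. Here *upf1-5* was the library below WT, with a log2 ratio of -0.21.

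The scaffold gene *VCS*, on chromosome 3 at 4303822 to 4310275, had 22.4 FPKM in the double mutant, 23.3 in *upf3-1*, 19.3 in *upf1-5* and 23.2 in WT. Its level in the double mutant was close to that in WT, with a log2 ratio of -0.05 that turned to 0.02 after libraries were rescaled to the same 75th percentile. *DCP5*, which represses translation and takes part in decapping (chromosome 1, 9024341 to 9027955), was the most abundant of the 10 mRNAs, with 76.8 FPKM in the double mutant, 67.4 in *upf3-1*, 74.4 in *upf1-5* and 85.4 in WT. All 3 mutants were below WT, by at most 1.27-fold. In the class of most abundant loci, where *DCP5* and *LSM1A* lie, the log2 ratio to WT of *DCP5* was -0.15 in the double mutant, -0.34 in *upf3-1* and -0.20 in *upf1-5*, against class medians of -0.36, -0.30 and -0.07.

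Among activators of decapping, the copies of LSM1 differed in pattern. *LSM1A*, on chromosome 1 at 6608115 to 6609369, had 57.2 FPKM in the double mutant, 49.96 in *upf3-1*, 62.4 in *upf1-5* and 56.3 in WT. *LSM1B*, on chromosome 3 at 4667308 to 4669194, had 33.4 FPKM in the double mutant, 46.1 in *upf3-1*, 41.5 in *upf1-5* and 40.8 in WT. *LSM1B* was lowest in the double mutant, where *LSM1A* was close to WT, and was highest in *upf3-1*, where *LSM1A* was lowest. The ratio of *LSM1A* to *LSM1B* was accordingly 1.71 in the double mutant, 1.08 in *upf3-1*, 1.505 in *upf1-5* and 1.38 in WT. Their coding sequences are 76.6% identical, with no shared run longer than 14 nt. *LSM1A* overlaps AT1G05463 and AT1G19130 on the other strand by up to 194 nt in the reference. Both kits named for the libraries keep strand, but the authors' alignment and counting ran with default settings, which treat libraries as unstranded, so reads from this overlap cannot be told apart by strand.

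*PAT1*, on chromosome 1 at 29749101 to 29753330, links deadenylated mRNAs to decapping and was the least variable of the 10 genes. It had 26.2 FPKM in the double mutant, 27.4 in *upf3-1*, 31.0 in *upf1-5* and 30.9 in WT, so both libraries with *upf3-1* were slightly below the other pair. The level in *upf1-5* was closest to that in WT, with a log2 ratio of 0.0022 that turned to -0.0010 after scaling to a median ratio of 1. The exoribonuclease *XRN4*, on chromosome 1 at 20350109 to 20356916 and listed under the synonym *AIN1*, was the only one of the 10 genes above WT in all 3 mutants. It had 20.5 FPKM in the double mutant, 17.3 in *upf3-1*, 15.9 in *upf1-5* and 14.5 in WT. The double mutant was thus 1.41 times WT, the highest such ratio among the 10 genes, and 74.1% of loci had a lower ratio in that pair.

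**Figure D2:**
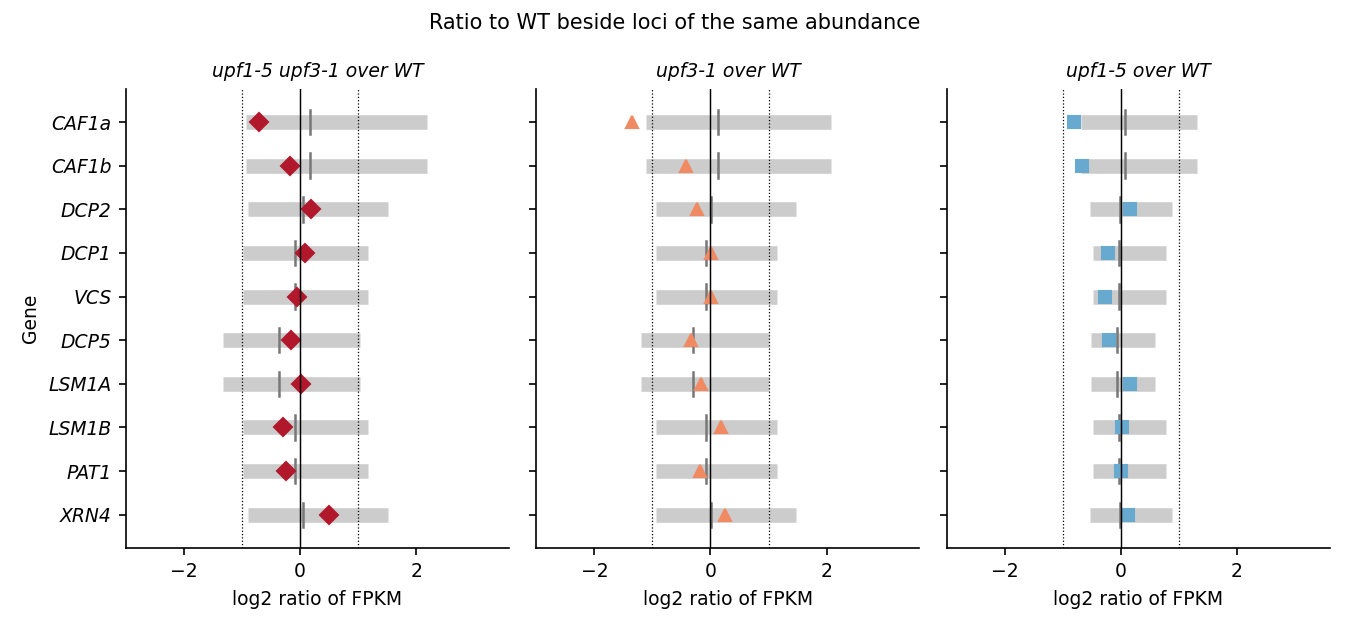
Log2 ratio of FPKM to WT for each gene, in panels for *upf1-5 upf3-1*, *upf3-1* and *upf1-5*. Grey bars span the 5th to 95th percentile of loci in the same abundance class, grey ticks mark their median, and dotted lines mark a 2-fold difference, which *CAF1a* in *upf3-1* passes at -1.35.

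A gene counted as changed where both libraries differed by 2-fold or more and the higher one reached 1 FPKM. In the double mutant, 0 of 10 genes were higher than WT by this rule, against 15.0% of loci, and 0 were lower, against 6.91%. In *upf3-1*, 0 of 10 were higher, against 14.6% of loci, and 1, *CAF1a*, was lower, against 6.89%. In *upf1-5*, 0 of 10 were higher, against 7.64% of loci, and 0 were lower, against 2.4%. A share of 1 in 10 genes is near these backgrounds. Averaged over the abundance classes that the 10 genes fall in, the share of loci higher than WT was 8.92% in the double mutant, 8.94% in *upf3-1* and 4.18% in *upf1-5*. Within the abundance class of *CAF1a* and *CAF1b*, 17.3% of loci were higher and 4.37% lower in the double mutant, 17.1% were higher and 6.17% lower in *upf3-1*, and 8.48% were higher and 1.8% lower in *upf1-5*. At a fold of 1.5, *CAF1a* was lower in the double mutant, against 17.3% of all loci, and in *upf3-1*, against 17.9%. Both deadenylases were lower in *upf1-5* at that fold, against 6.47% of loci. None of the 10 genes was higher than WT by 1.5-fold, against 23.3% of loci in the double mutant, 22.5% in *upf3-1* and 14.9% in *upf1-5*.

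The median log2 ratio to WT of the 10 genes was -0.10 in the double mutant, against 0.0098 for all loci tested. It was -0.17 in *upf3-1*, against -0.01 for all loci, and -0.10 in *upf1-5*, against 0.0. Ratios to WT fell with abundance, so all loci are not a matched background. Class medians in that order of mutants were 0.18, 0.12 and 0.08 in the second class and 0.04, 0.01 and -0.02 in the third. They were -0.09, -0.08 and -0.03 in the fourth class and -0.36, -0.30 and -0.07 in the fifth. These 4 classes hold 2, 2, 4 and 2 of the 10 genes. In the double mutant 4 genes were above WT and 6 below, in *upf3-1* likewise 4 and 6, and in *upf1-5* 5 and 5, where *VCS* in the double mutant and *PAT1* in *upf1-5* change sides with scaling as given above. All of these ratios share the 1 WT library. Over the 4 libraries, the highest level was 1.3001 times the lowest at the median of the 10 genes, against 1.65 times for 20048 loci with a value in every library. Of the 10 genes, 8 stayed within 1.5-fold, and so did 38.7% of those loci. Of the 10 genes, 8 lie in the upper 3 abundance classes, where this ratio had a median of 1.498 in the third class, 1.45 in the fourth and 1.58 in the fifth, against 1.69 in the second.

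The mutants were then compared with each other. Between the double mutant and *upf3-1*, 0 of 10 genes were higher in the double mutant at a fold of 2, against 6.67% of loci, and 0 were lower, against 4.7%. At a fold of 1.5, *CAF1a* was higher in the double mutant, against 13.1% of loci. Between the double mutant and *upf1-5*, 0 were higher in the double mutant, against 9.64% of loci, and 0 were lower, against 4.47%. Between *upf3-1* and *upf1-5*, 0 were higher in *upf3-1*, against 8.82% of loci, and 0 were lower, against 5.32%. The double mutant exceeded *upf3-1* for 7 of the 10 genes, with a median log2 ratio of 0.19 against 0.0032 for all loci. It also exceeded *upf1-5* for 7 of the 10, with a median of 0.08 against -0.0059.

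Since the design holds each mutation alone and together with the other, the difference made by *upf3-1* can be read in *upf1-5* plants and in WT plants. For *CAF1a*, the log2 ratio of the double mutant to *upf1-5* was 0.11, against -1.35 for *upf3-1* to WT. The same holds for *upf1-5*, since *CAF1a* had a log2 ratio of 0.65 for the double mutant to *upf3-1*, against -0.81 for *upf1-5* to WT. Each mutation alone went with a lower *CAF1a* level, and neither did so when the other mutation was present. *CAF1b* showed the same signs, with 0.50 against -0.42 for *upf3-1* and 0.25 against -0.67 for *upf1-5*.

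If both mutations had multiplied their separate ratios, *CAF1a* would have reached 2.58 FPKM in the double mutant, and 7.11 FPKM was measured, a 2.76-fold excess. For *CAF1b* the product was 3.56 FPKM and 6.73 FPKM was measured, a 1.89-fold excess. On the log2 scale, this excess was 1.46 for *CAF1a*, which is above 96.4% of all loci and 97.0% of loci in its abundance class. An excess of 2-fold or more, which *CAF1a* alone of the 10 genes reached, was seen at 7.01% of all loci and 7.06% of its class, and a shortfall of that size, which 0 of 10 reached, at 10.6% of all loci. The other genes lay between -0.49 for *LSM1B* and 0.92 for *CAF1b*. The excess was positive for 8 of 10 genes, with a median of 0.24 against -0.02 over all loci. The share of all loci with a positive excess was not computed, and the median over all loci is not matched for abundance. The excess takes in the values of all 4 libraries, so a deviation in any 1 of them moves it by the same amount on the log2 scale.

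**Figure D3:**
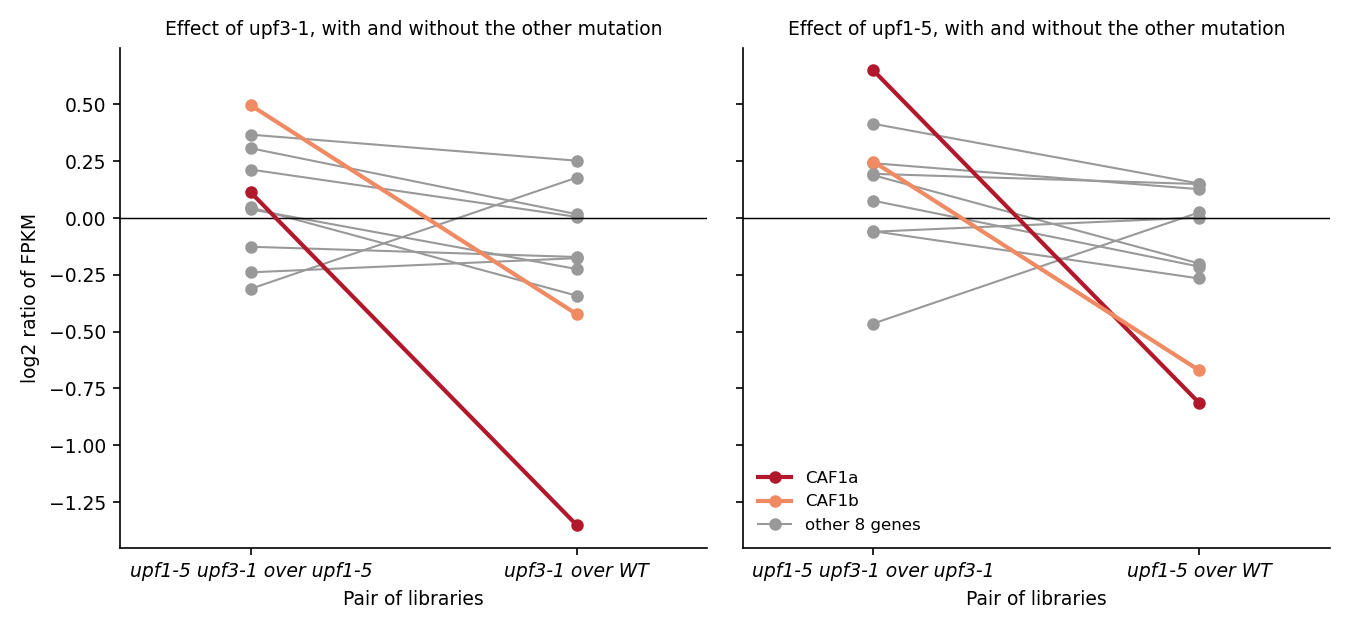
Log2 ratio of FPKM for the effect of *upf3-1* (left panel) and of *upf1-5* (right panel), each measured in plants that carry the other mutation and in plants that do not, with a line per gene. The line of *CAF1a* runs between 0.11 and -1.35 on the left and between 0.65 and -0.81 on the right, and the grey lines of the other 8 genes span a narrower range.

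FPKM is a value per length of transcript, so levels can be set beside each other between genes. In all 4 libraries the order from the top was *DCP5*, *LSM1A* and *LSM1B*, followed by *PAT1* and *DCP1*, then *VCS*, *XRN4* and *DCP2*, with *CAF1a* and *CAF1b* last. This order covers the 10 genes alone, and other CAF1-like genes lay both above and below *CAF1a* and *CAF1b*. AT5G10960 had 201 FPKM in the double mutant, 174 in *upf3-1*, 169 in *upf1-5* and 170 in WT, whereas AT1G61470 had at most 1.39 FPKM. Neighbours that cannot be ordered are *PAT1* and *DCP1*, since *PAT1* was above in 3 of 4 libraries, and *CAF1a* and *CAF1b*, since *CAF1a* was above in 3 of 4. *DCP2* exceeded *CAF1a* by 1.88-fold in the double mutant and 1.97-fold in *upf1-5*, but only by 1.01-fold in WT. The other steps had the same order in 4 of 4 libraries, but without replicates the spread behind each step is unknown.

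Paralogs of the decapping genes, taken for their sequence but listed with earlier results of these data known, were lower in level throughout. *VCS* exceeded *VCR*, which is 89.3% identical to it with a shared run of 67 nt, by 3.02-fold in the double mutant, 4.21-fold in *upf3-1*, 3.17-fold in *upf1-5* and 3.56-fold in WT. As for the *CAF1* genes, the division between *VCS* and *VCR* is uncertain for reads that map to both. *DCP5* exceeded *DCP5-L* by 15.2-fold in the double mutant, 17.1-fold in *upf3-1*, 18.0-fold in *upf1-5* and 22.8-fold in WT. *PAT1* exceeded *PATH1* by between 2.36-fold and 2.54-fold. It exceeded *PATH2* by 1.45-fold in the double mutant, 2.03-fold in *upf3-1*, 2.42-fold in *upf1-5* and 2.196-fold in WT. The named gene was therefore the higher copy of each of these families in every genotype.

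Other genes of mRNA decay were taken from lists of 51 loci, of which 47 had values past the filter, and the other 4 are CAF1-like genes not analysed here. At a fold of 2, 1 of the 47 was higher than WT in the double mutant, against 15.0% of all loci. The count was also 1 in *upf3-1*, against 14.6%, and 1 in *upf1-5*, against 7.64%, and it was the same gene each time. This gene, AT1G61470, encodes a CAF1-like protein and had 1.39 FPKM in the double mutant, 1.01 in *upf3-1*, 1.00 in *upf1-5* and 0.420 in WT, which is close to the limit of 1 FPKM. In the double mutant 1 of the 47 was lower, against 6.91% of all loci. This was *NOT9a*, a subunit of CCR4-NOT, with 10.6 FPKM in the double mutant, 24.9 in *upf3-1*, 16.6 in *upf1-5* and 22.3 in WT. The median log2 ratio of the 47 genes was -0.13 in the double mutant, -0.18 in *upf3-1* and -0.03 in *upf1-5*, against 0.0098, -0.01 and 0.0 for all loci.

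By role, the 15 other genes of CCR4-NOT and of deadenylation with values had a median log2 ratio of -0.13 in the double mutant, -0.14 in *upf3-1* and -0.14 in *upf1-5*. The 7 partners and paralogs of decapping, which include DEAD-box helicases, had medians of 0.18, -0.06 and -0.0088 in that order, and 0 of them changed by 2-fold. Over all loci, 15.0% were higher and 6.91% lower by that fold in the double mutant, 14.6% and 6.89% in *upf3-1*, and 7.64% and 2.4% in *upf1-5*. The 9 other LSM subunits had medians of -0.13 in the double mutant, -0.17 in *upf3-1* and 0.22 in *upf1-5*, where 8 of 9 were above WT, as were 9795 of 19602 loci. Each of these 9 was lower in the double mutant than in *upf1-5*, by a median log2 difference of -0.29, against -0.0059 for all loci. *LSM1A* and *LSM1B* were also lower in this pair, by -0.13 and -0.31. A lower level in this pair is not particular to LSM genes. Loci of the most abundant class, where *LSM1A* lies, had a median log2 ratio to WT of -0.36 in the double mutant and -0.07 in *upf1-5*. In the fourth class, where *LSM1B* lies, these medians were closer together, at -0.09 and -0.03. The 14 genes of 3′ to 5′ decay, for the exosome and its SKI cofactors among others, had a median log2 ratio of -0.45 in the double mutant, with 12 of 14 below WT, of -0.25 in *upf3-1*, with 12 of 14 below, and of -0.05 in *upf1-5*, with 7 of 14 below. Of all loci tested, 9868 of 20008 were below WT in the double mutant, 10050 of 19789 in *upf3-1* and 9796 of 19602 in *upf1-5*. None of these 14 genes passed a fold of 2, against the shares of all loci given above. The nuclear relatives *XRN2* and *XRN3* had a median of -0.22 in the double mutant, -0.18 in *upf3-1* and -0.23 in *upf1-5*, whereas *XRN4* had log2 ratios of 0.49, 0.25 and 0.13.

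**Figure D4:**
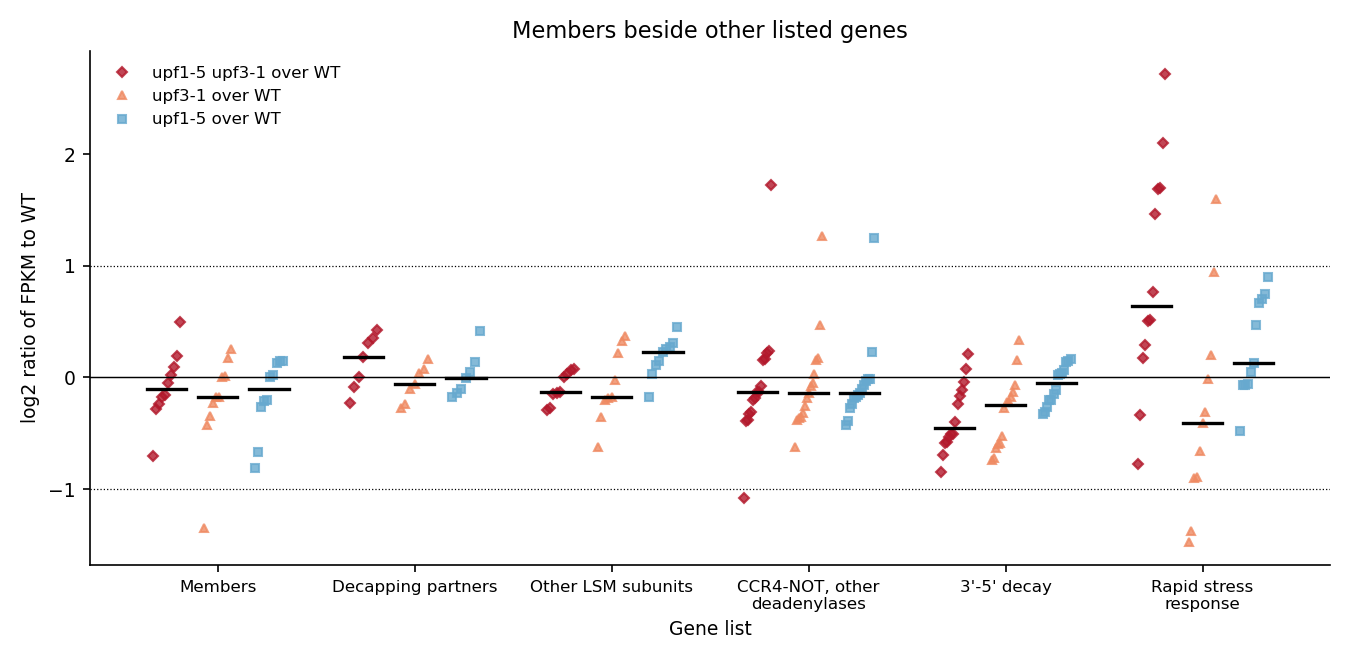
Log2 ratio of FPKM to WT for the 10 genes (Members) and for other listed genes, with 1 point per gene and a bar at the median of each list and mutant. The genes of 3′-5′ decay have a median of -0.45 in *upf1-5 upf3-1*, and the rapid stress response genes have medians of 0.64, -0.41 and 0.13 in *upf1-5 upf3-1*, *upf3-1* and *upf1-5*.

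*CAF1a* and *CAF1b* are known in Arabidopsis as genes that respond quickly to wounding and other stress, so 12 other rapid stress genes were read beside them. In the double mutant 5 of 12 were higher than WT by 2-fold or more, namely the transcription factor genes *WRKY33*, *ZAT10*, *ZAT12* and *ERF5* and the calmodulin-like gene *CML37*, against 15.0% of all loci, and 0 were lower, against 6.91%. In *upf3-1*, 1 of 11, *ZAT12*, was higher, against 14.6% of loci, and 2 of 11 were lower, against 6.89%, namely *TCH4*, for a cell wall enzyme, and *ERF104*, for a transcription factor. In *upf1-5*, 0 of 11 were higher, against 7.64% of loci, and 0 were lower, against 2.4%. The list median was 0.64 in the double mutant, -0.41 in *upf3-1* and 0.13 in *upf1-5*, and *CAF1a* had log2 ratios of -0.70, -1.35 and -0.81. All 11 of these genes with a value in both libraries were higher in the double mutant than in *upf3-1*, with a median log2 difference of 1.12. *CAF1a* and *CAF1b* were also higher in that pair, by 0.65 and 0.25, as were 10197 of 20272 loci. This direction is not particular to the deadenylases, since 7 of the 10 genes had it, *DCP2* by 0.41 and *XRN4* by 0.24. Against WT, the list median and *CAF1a* thus had opposite signs in the double mutant and in *upf1-5* and the same sign in *upf3-1*. Their signs were also the same between the double mutant and *upf1-5*, at 0.52 for the list and 0.11 for *CAF1a*, and between *upf3-1* and *upf1-5*, at -0.55 and -0.54. *CAF1b* had the signs of *CAF1a* except between *upf3-1* and *upf1-5*, where it was at 0.25, opposite to the list.

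Genes with a pattern like that of *CAF1a* were ranked among 17369 annotated genes at 1 FPKM or more in every library, by the greatest difference in log2 ratio to WT over the 3 mutants. Of these, 17 came within 0.2. The nearest was AT1G26800, for a RING/U-box protein, with 11.0 FPKM in the double mutant, 6.83 in *upf3-1*, 9.97 in *upf1-5* and 18.2 in WT, at a greatest difference of 0.06. *AtPP2-A13* (AT3G61060), for an F-box protein, had 10.8 FPKM in the double mutant, 7.53 in *upf3-1*, 10.6 in *upf1-5* and 18.8 in WT, at 0.11. The other 3 of the nearest 5 were AT4G17440 and AT5G62865, both uncharacterized, at 0.07 and 0.11, and AT2G27385, for an extensin family protein, at 0.13. The ranking rests on 4 libraries with a shared WT, and many genes can share a pattern of 3 ratios.

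The annotated models were examined for features that NMD can recognise in plants. Counted were exon junctions that follow the stop codon by over 50 nt, 3′-UTRs that reach 350 nt, and upstream reading frames that reach 35 codons. At least 1 model of 5 of the 10 genes has such a feature, as has 40.6% of 27444 coding genes. *PAT1* has a feature in all 3 of its models, among them a 3′-UTR of 450 nt in 1 model and a junction that follows the stop codon by 94 nt in another. *VCS* has 1 model of 3 with a 3′-UTR of 982 nt, where a junction follows the stop codon by 418 nt. *XRN4* has an upstream reading frame of 78 codons in 1 of 2 models, *DCP1* one of 49 codons in its only model, and *DCP2* a 3′-UTR of 437 nt in 1 of 2 models. *CAF1a* and *CAF1b*, as genes with a single exon, have no junction, and their 3′-UTRs measure 205 nt and 128 nt. *DCP5*, *LSM1A* and *LSM1B* also have none of these features.

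The 5 genes with a feature had a median log2 ratio to WT of 0.09 in the double mutant, against -0.17 for the 5 without. The medians were 0.0052 against -0.34 in *upf3-1* and 0.0022 against -0.20 in *upf1-5*. Over all loci with a coding model in the reference, 9592 with a feature and 8970 without in the double mutant, the same medians were 0.02 against -0.03 in the double mutant, -0.01 against -0.06 in *upf3-1* and -0.0026 against -0.0092 in *upf1-5*. The ranges of both sets overlapped in each mutant, for example from -0.24 to 0.49 with a feature and from -0.70 to 0.02 without in the double mutant. The set without a feature holds *CAF1a* and *CAF1b*, and also *DCP5* and *LSM1A* of the most abundant class. A part of the features therefore cannot be told apart from gene family and abundance. Levels are per gene, so levels of single models were not resolved here.

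Promoters were read from 250 bases before to 50 bases after the annotated start for 3 short motifs, on both strands, because the seedlings were collected at a set time of day and *CAF1* genes respond to stress. The stress motif CGCGTT was in none of the 10 promoters, and 3.40% of 27443 promoters hold it. The G-box CACGTG was in the promoter of *PAT1* alone, and 7.68% of promoters hold it. The evening element AAAATATCT was in the promoter of *LSM1B* alone, on the other strand, and 2.82% hold it. Both matches are shown as read 5′ to 3′ on the strand of the gene, with the motif in capitals, from chr1:29753539-29753562 (minus strand) and chr3:4667188-4667214 (plus strand) of TAIR10.1.
PAT1: acgagtccgCACGTGacaagtcat
LSM1B: attcgaaacAGATATTTTattagcttg
Counted from the annotated start, the first letter of the motif lies at -223 in *PAT1* and at -111 in *LSM1B*. A match is a description of these letters and does not show binding of a factor. *PAT1*, with 1.18-fold between its highest and lowest library, and *LSM1B*, with 1.38-fold, were on either side of the median of the 10 genes.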

How the data were processed

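Pooled seedlings gave 1 RNA library for each of 4 genotypes. Per the labels, an mRNA kit was used, whereas the methods describe rRNA removal from total RNA. The authors aligned reads to TAIR10 with TopHat and used Cufflinks and Cuffdiff for normalized FPKM. For each of 6 pairs of libraries, the deposited table (127437 lines) gives the FPKM summed over the pair, and the deposited fold is the ratio of the higher to the lower value, with a direction. A further column holds the authors' q-values and was not used, and 0 value columns were left without a sample.

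FPKM per library was recovered from the sum, fold and direction. Of 77484 values of 1 FPKM or more, 100% had estimates within 1% of each other, and the pair sums alone gave all 40 values of the 10 genes to within 0.137%. Loci counted as changed at a fold of 2 where the higher library reached 1 FPKM, without a pseudocount. Recovery and counting were checked on simulated data. Read numbers were not given in the sources used here, so the precision is unknown, and summed FPKM ran between 775445 in the double mutant and 1.04e+06 in WT. Named are the 10 genes, targeted, reference and marker genes, other listed genes past the fold and the 5 genes most like the most variable of the 10. Outside that rule, closest paralogs, the CAF1-like gene AT5G10960, *XRN2* and *XRN3* are named as well. The genes, lists and comparisons were chosen with earlier results of these data known. Gene models and sequences are from RefSeq for TAIR10.1, whose models need not be those of the authors. Alternatives were other scalings, pseudocounts, folds, filters and routes of recovery. Computation used pandas 2.3.3 and NumPy 2.4.6 in Python 3.11.15, with Biopython 1.88, SciPy 1.17.1 and matplotlib 3.10.9.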

Additional observations from a re-analysis of the deposited data

Results flagged for a closer look

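For 7 of the 10 genes, the difference made by at least 1 mutation had opposite signs in plants with and without the other mutation. Each sign rests on 1 library per genotype, so the difference between backgrounds was not tested. The log2 ratio of the double mutant to WT minus the sum of both single mutant ratios was 1.46 for *CAF1a* and 0.92 for *CAF1b*. It was 0.39 for *DCP5*, 0.29 for *DCP1* and 0.26 for *DCP2*, and it was -0.49 for *LSM1B* and -0.0625 for *PAT1*. Opposite signs are common, since 33.3% of all loci have them for *upf3-1* and 49.3% for *upf1-5*, against 5 and 6 of the 10 genes. The share of all loci with opposite signs for at least 1 mutation was not computed, so the count of 7 has no background beside it.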

How the results depend on the processing

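No paired analysis was possible because each genotype has 1 library, and for the same reason no replicate could be left out. Under the 12 alternatives, where each applies, 70 single values of the 10 genes (630 values) moved by at most 0.18 on the log2 scale, and 0 moved by over 1.5-fold. Filters on low values and the restriction to annotated genes cannot change a ratio of these genes. The routes of recovery use the same deposited values, so many of the 630 values could not move far. The direction flipped for *PAT1* in *upf1-5* and *VCS* in the double mutant, as given above. Scaling to a median ratio of 1 left 0 other decay genes higher in *upf1-5*. With a pseudocount of 1, 0 were higher in any mutant, and 4.08% of loci were higher and 1.18% lower in *upf1-5*. With 1 FPKM required in both libraries, 0 were likewise higher, and the shares in *upf1-5* were 4.74% and 1.36%. At a fold of 1.5, 1 of the 10 genes was lower in the double mutant and 2 in *upf1-5*, 1 was higher in the double mutant than in *upf3-1*, 3 other decay genes were lower in the double mutant and 6 in *upf3-1*, and the shares of loci higher and lower were 23.3% and 17.3% in the double mutant, 22.5% and 17.9% in *upf3-1*, and 14.9% and 6.47% in *upf1-5*. At a fold of 4, 0 of the 10 genes were lower in *upf3-1*, 0 other decay genes were higher in any mutant or lower in the double mutant, and the shares were 6.13% and 1.03% in the double mutant, 5.29% and 1.18% in *upf3-1*, and 1.98% and 0.612% in *upf1-5*. Averaged over the abundance classes of the 10 genes, 8.92% of loci were higher in the double mutant, 8.94% in *upf3-1* and 4.18% in *upf1-5*, and 0.763% were lower in *upf1-5*. Other folds and filters move these counts by construction, and the other decay gene no longer counted as higher is AT1G61470, whose level lies near the limit of 1 FPKM, where values are least certain.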
